A study of Drosophila melanogaster with 3 samples.

Results

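The juvenile hormone pathway genes described here are Met, gce, tai, Kr-h1, jhamt, Jheh1, Jheh2 and Jhe of Drosophila melanogaster, 8 of 13945 protein-coding genes on the chromosome arms. They were set against a map of where Hr4 bound chromatin at the white prepupa stage, when the larva has just become immobile and forms its puparium. Each gene was taken with its span in the Ensembl annotation and 5 kb to each side, and the reproducible Hr4 peak summits inside that region were counted, placed and ranked. The regions held 19 of 8687 reproducible summits. Hr4 is a nuclear receptor with no known ligand that takes part in the response to ecdysone. Chromatin came from whole prepupae of the Hr4-GFP strain, both sexes pooled, in which Hr4 carries GFP at its C-terminus, and was precipitated with an antibody to GFP. The labels give the age as 48 days. They name no promoter for the tagged gene and do not state whether the untagged gene is still present. There were 3 biological replicates in 1 group, so no condition was compared and no test was made. Read depth is unknown, because the lists carry no read counts, and a control library was not analysed here. As whole animals were used, the tissue in which a site was bound cannot be told.

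Juvenile hormone is a sesquiterpenoid made in the corpora allata that keeps insect larvae from entering metamorphosis while ecdysone drives their moults. Met and gce encode paired receptors of the bHLH-PAS family that bind the hormone, and tai encodes a steroid receptor coactivator that works with them. Kr-h1 encodes a zinc finger protein, a direct target of the receptor that carries the anti-metamorphic signal. jhamt encodes the methyltransferase of a late step of hormone synthesis, and Jhe (an esterase) and Jheh1 and Jheh2 (epoxide hydrolases) belong to the enzymes that break the hormone down.

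To show the DNA under the summits that carry the pattern, the 101 bases centred on 7 of them are given as read from the + strand of the RefSeq Release 6 genome, the same assembly as dm6. They are the strongest summit near Met, the strongest in gce and the one in gce that holds a listed motif, the GC-rich one past the end of gce, and 3 in tai, including its promoter summit. Capitals mark TATCGATA, the core of the DNA replication-related element, which is its own reverse complement. It is the only motif searched for that these windows hold.
Met, X:11623064-11623164, in Ptp10D: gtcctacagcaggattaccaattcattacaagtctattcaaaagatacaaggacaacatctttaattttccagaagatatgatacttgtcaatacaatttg
gce, X:15298461-15298561: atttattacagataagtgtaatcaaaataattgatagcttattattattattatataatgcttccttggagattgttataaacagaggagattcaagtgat
gce, X:15312313-15312413: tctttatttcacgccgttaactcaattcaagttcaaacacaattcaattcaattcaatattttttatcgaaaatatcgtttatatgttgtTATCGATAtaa
gce, X:15323358-15323458, in Top1: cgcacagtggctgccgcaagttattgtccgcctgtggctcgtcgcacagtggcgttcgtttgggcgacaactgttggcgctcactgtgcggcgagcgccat
tai promoter, 2L:9166659-9166759: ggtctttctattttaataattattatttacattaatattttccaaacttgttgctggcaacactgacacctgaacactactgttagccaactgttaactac
tai, 2L:9168416-9168516: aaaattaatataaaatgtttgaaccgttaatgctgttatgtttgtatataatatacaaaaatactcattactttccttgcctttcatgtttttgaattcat
tai, 2L:9206542-9206642: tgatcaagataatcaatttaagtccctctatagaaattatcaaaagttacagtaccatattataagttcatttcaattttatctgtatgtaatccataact

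Most of the summits lay in the regions of the coactivator gene tai and the receptor gene gce. The tai region held 9, the gce region 7 and the Met region 2, and Jheh1 and Jheh2 shared 1. The regions of Kr-h1, jhamt and Jhe held none. A summit in the span or its flanks was thus found for 5 of 8 genes, and for 51.2% of all protein-coding genes (7134 of 13945). A start site of its own with a summit no more than 1 kb away was found for 3 of 8, gce, tai and Jheh1, and for 22.7% of all protein-coding genes (3164). With only 8 genes, neither share is far from its background. Only tai and gce, which have the longest spans of the 8, held summits inside the gene span, 8 and 5. The share of all genes with a summit inside the span is not given, so this count has no background here. The other 6 summits lay in flanks, most of them in or beside another gene. For 6 of the 19 the nearest start site of any gene, non-coding ones included, was that of a pathway gene, and for the others it was that of Ptp10D, Top1, a tRNA gene beyond the long intron of tai (tRNA:Thr-AGT-1-1) or an antisense RNA (asRNA:CR44429 or asRNA:CR44961).

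A longer region has more room for summits, and tai is long. Its span of 83434 bp is exceeded by 0.868% of protein-coding genes, and 1.30% of them had as many summits in their regions or more. Per kb, however, tai had 0.0963 summits, a density below which 74.6% of genes lay. gce, with a span of 21309 bp, had 0.224 summits per kb, and 91.2% of genes had a lower density. Met had 0.132 per kb (77.9% of genes lower). These densities include flank summits: the 7 of the gce region include those in Top1, and both of Met lie in Ptp10D. Genes without any summit in their region count as lower, and 51.2% of genes had a summit there. The arms as a whole held 0.0649 summits per kb, and the median gene region 0.0317. Kr-h1, with a span of 13896 bp and 0 summits, is longer than most genes: 10.5% have a longer span.

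**Figure D1:**
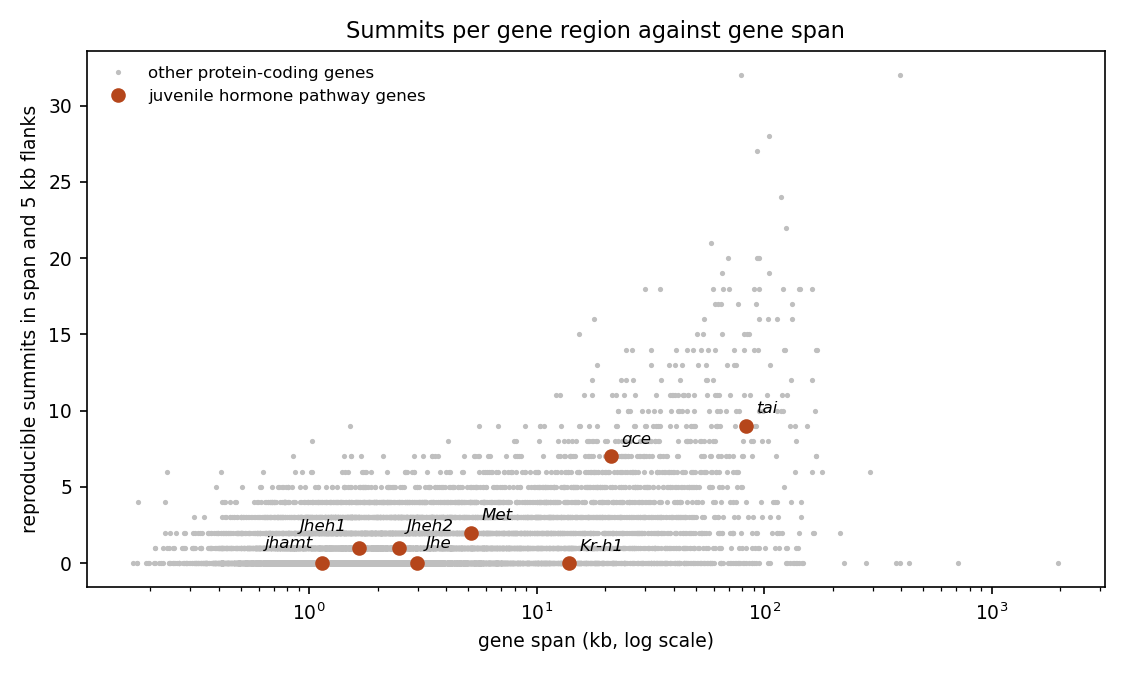
Reproducible summits in each gene's span and 5 kb flanks (vertical axis) against its span in kb (horizontal axis, log scale), 1 point a gene. tai (9) and gce (7) lie high among the 8 pathway genes in colour, while Kr-h1, jhamt and Jhe lie at 0.

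The summits ranged from strong to weak within the reproducible list, with a median somewhat below that of the list. Strength is the authors' signal value of a peak called on the pooled reads of all replicates, which runs from 88.0 to 3773 over 8693 peaks with a median of 176.6. The 19 summits had a median of 154.5 and a median rank of 5003, where rank 1 is the highest, and 7 of them were in the stronger 50% of peaks. They can be split by peak width, as can the peaks of the whole list. The 6 narrower peaks, 106 to 365 bp wide, ranked between 773 and 2142, and the 13 peaks of 424 bp ranked 4046 or lower. Over all arm peaks, 64.0% were 424 bp wide with a median rank of 5870, and the 34.1% that were narrower had a median rank of 1651 (1650.5).

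Of the receptor genes, Met (FBgn0002723, X 11616124 to 11621280, + strand) had no summit within its span. Both summits of its region lay past its 3′ end, at 11623114 and 11623318, 1834 and 2038 bp beyond the span. They fall in an intron of Ptp10D, a receptor tyrosine phosphatase gene, 1099 and 1303 bp downstream of a Ptp10D start site and 6990 and 7194 bp from that of Met. The first was the strongest of the 19, with a signal value of 569 and rank 773. It stood at percentile 96.3 of the relaxed list of replicate 1, 97.4 of replicate 2 and 98.0 of replicate 3, where 100 is the highest of the 30000 entries of a list. The second (signal value 161, rank 4803) stood at 14.1, 81.8 and 89.2. The stronger site was thus high in every replicate, and the weaker one, 204 bp away with a peak that overlaps it by 187 bp, was low in replicate 1.

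At the Met start site itself the reproducible list had nothing. Replicate 2 held a relaxed entry 34 bp upstream of it at percentile 26.01, and replicate 3 one 33 bp upstream at 35.6. Replicate 3 also held a higher one 525 bp downstream, in the 5′ UTR, at 58.2. Replicate 1 and the pooled list held none within 250 bp. Relaxed lists mix peaks with background by design, so an entry at such percentiles is not a called site.

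The second receptor gene, gce (FBgn0261703, X 15297766 to 15319074, + strand), carried its strongest summit close to its start sites. The summit at 15298511 (signal value 535, rank 850) lay 745 bp downstream of the first start site, in intron 1 of gce-RE, and 498 bp upstream of the start site that gce-RC and gce-RG share. The start of an antisense RNA, asRNA:CR44429, is 294 bp away. It stood at percentiles 94.6, 98.1 and 97.0 of replicates 1, 2 and 3. It was thus near the top of every list.

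Further into gce the summits were weaker. One at 15306287 (92.6, rank 8282) lay in 5′ UTR sequence, at a position inside an exon of each of the 4 isoforms. Intron 3 of all 4 isoforms, 3870 bp long, held 3 more, at 15312363 (187, rank 4046), 15312564 (120, rank 6490) and 15314110 (103, rank 7542). The first 2 of these are 201 bp apart and their peaks overlap by 223 bp. These 4 were matched in each replicate, at percentiles from 58.6 to 90.5. The window of 15312363 holds the TATCGATA printed above, at 15312403 to 15312410, with its centre 43.5 bp from the summit.

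The last 2 summits of the gce region belong by position to its neighbour Top1, which encodes a DNA topoisomerase. The summit at 15320613 (116, rank 6730) lay 1539 bp past the end of gce and 244 bp inside the start site of Top1-RD. Its percentiles were 37.9, 83.6 and 77.5, lowest in replicate 1. The summit at 15323408 (305, rank 2142) lay 4334 bp past the end of gce and 183 bp upstream of the start site of Top1-RE. It stood at 92.7 and 92.1 in replicates 2 and 3, and replicate 1 held no entry within 250 bp. Without these 2, gce holds 5 summits.

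The coactivator gene tai (FBgn0041092, 2L 9166778 to 9250211, + strand) had a summit near both of its start sites and a row of them through its introns. The promoter summit at 9166709 (147, rank 5271) lay 69 bp upstream of the start site shared by tai-RD, tai-RG and tai-RH and 195 bp upstream of that of the divergent gene CG9586. It stood at percentiles 85.1, 87.2 and 65.0. The summit at 9175374 (118, rank 6579) lay 984 bp upstream of the other start site, shared by tai-RC, tai-RE and tai-RF. It was found in replicates 2 and 3 only, at 85.4 and 79.3.

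A further entry, closer to that second start site, fell just short of the reproducible list. At 9176182, 176 bp upstream of the start site, the pooled list had an entry with a signal value of 87.9 and rank 8698, where the reproducible list ends at rank 8693 and a signal value of 88.0. All replicates had an entry nearby, 148, 142 and 149 bp upstream, at percentiles 72.2, 26.5 and 66.9. Replicate 2 was the low one here, while replicate 1 had no entry at the called summit 808 bp farther upstream.

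The strongest tai summits were intronic. The pair at 9206592 (469, rank 1071) and 9207345 (441, rank 1192), 753 bp apart, lay 14778 and 15531 bp into a 42174 bp intron that all 6 isoforms share, more than 30 kb (30234 and 30987 bp) from the nearest tai start site. The first stood at percentiles 97.6, 97.1 and 93.7 and the second at 92.6, 97.0 and 96.7. The third strongest, at 9168466 (328, rank 1938), lay 1688 bp downstream of the first start site, in a 24176 bp intron, at percentiles 94.3, 92.8 and 93.1. All 3 were high in every replicate.

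The remaining 4 summits of tai, also intronic, had signal values from 92.6 to 173. Of these, 3 at 9211340, 9224578 and 9231960, lay in the same 42174 bp intron, which thus held 5 of the 9 summits, and were found in every replicate at percentiles from 78.0 to 85.6. The fourth, at 9190511 (rank 8287), had no entry within 250 bp in replicate 1 and stood at 59.5 and 78.2 in the others. No summit lay in a coding exon of tai, and none past 9231960 in the part of the gene where most of its exons are.

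**Figure D2:**
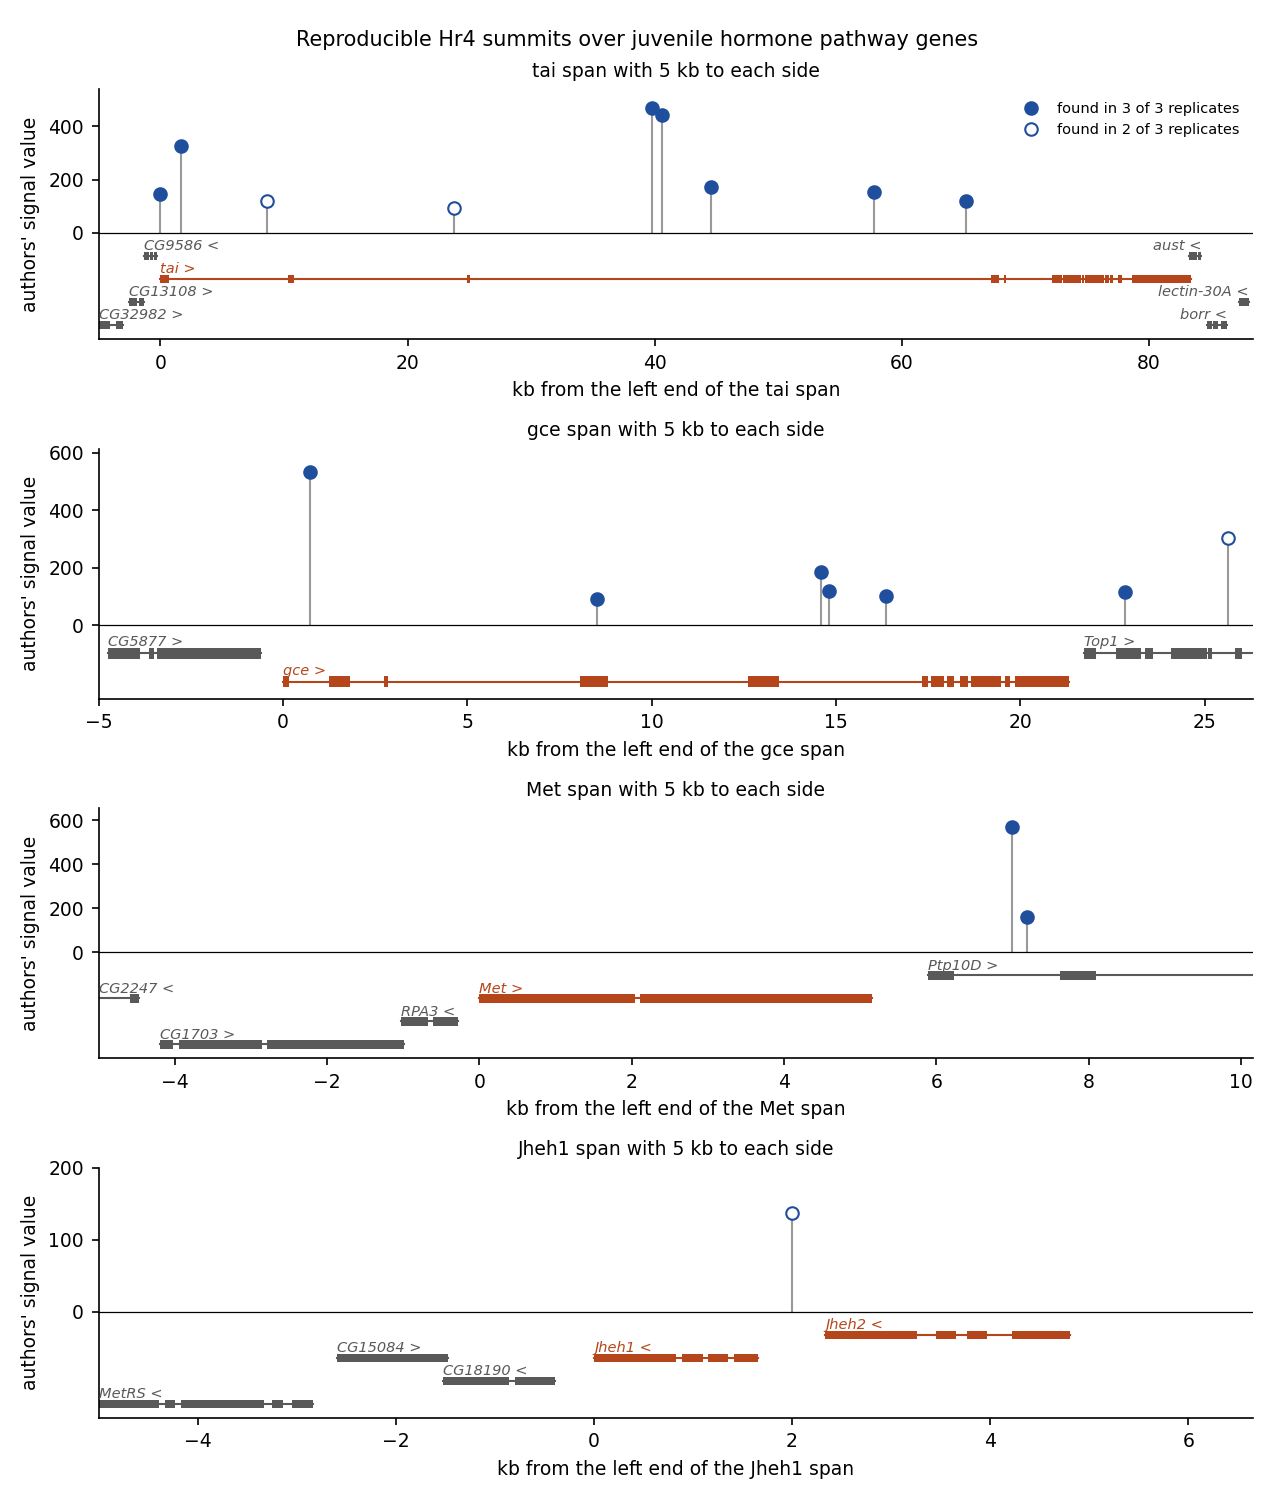
Reproducible summits (stems; height is the authors' signal value) over tai, gce, Met and Jheh1, by distance in kb from the left end of each span, with protein-coding gene models below (boxes are exons, > and < give the strand, pathway genes in colour). The strongest summits lie deep in an intron of tai (469 and 441), near the start of gce (535) and past the end of Met (569), and open circles mark the 4 summits found in 2 of 3 replicates.

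Kr-h1 (FBgn0266450, 2L 6082603 to 6096498, + strand) had no reproducible summit in its region, and the nearest one lay 16503 bp from its first start site, at 6066100. That one is among the strongest of the list (signal value 2049, rank 26) and sits 13 bp from a start site of CG9147. Within the Kr-h1 region the pooled list held 7 entries, of which the highest, at 6099301, ranked 11839 (signal value 63.4). None of the 7 lay within the gene itself. The entries of replicates 1, 2 and 3 nearest to that highest one stood at percentiles 74.0, 62.9 and 30.1. At the first start site, replicate 2 had an entry 38 bp upstream at percentile 14.1, and replicates 1 and 3 had none within 250 bp.

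Nothing was found near the synthesis gene jhamt (FBgn0028841, 2L 16365903 to 16367039, + strand). The pooled list held 1 entry in its region, at rank 23879, and replicate 1 held 3, the highest at percentile 48.4. Replicates 2 and 3 held 0. The nearest reproducible summit was 13207 bp from its start site, 68 bp from a start site of Hyls1 (rank 6168).

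Among the breakdown genes, Jheh1 (FBgn0010053, 18853434 to 18855087, − strand) and Jheh2 (FBgn0034405, 18855767 to 18858245, − strand) are neighbours on 2R with 1 summit between them. It lay at 18855436 (137, rank 5679), 349 bp upstream of the Jheh1 start site and 331 bp past the 3′ end of Jheh2, and 2504 bp from the nearest Jheh2 start site. An antisense RNA, asRNA:CR46485, spans both genes, and the summit falls in an exon of 1 of its isoforms. Replicate 1 had no entry within 250 bp, and in the Jheh1 region none at all, while replicates 2 and 3 gave percentiles of 80.1 and 81.3.

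Replicates 2 and 3 both placed a stronger entry nearer to Jheh1 than the pooled summit. It lay 146 bp upstream of the Jheh1 start site in replicate 2 (percentile 82.0) and 160 bp upstream in replicate 3 (percentile 92.3). These entries were 203 and 189 bp from the pooled summit. At the Jheh2 start site the pooled list had an entry 11 bp inside, at rank 17694 and so below the reproducible list. Replicate 2 had one 64 bp upstream (percentile 63.2) and replicate 3 one 11 bp inside (47.4).

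The esterase gene Jhe (FBgn0010052, 2R 16119793 to 16122773, + strand) had no reproducible summit in its region. The pooled list held 1 entry there, at rank 28150, and replicate 1 held 0. Replicates 2 and 3 held an entry 4909 and 4898 bp from a Jhe start site, at percentiles 65.9 and 58.8. Both entries lie within 250 bp of the start of the neighbouring gene spin, at 16124981. The nearest reproducible summit, 9394 bp from a Jhe start site and 6755 bp past its end, lies in an intron of spin, which encodes a lysosomal membrane protein, and ranked 1964.

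**Figure D3:**
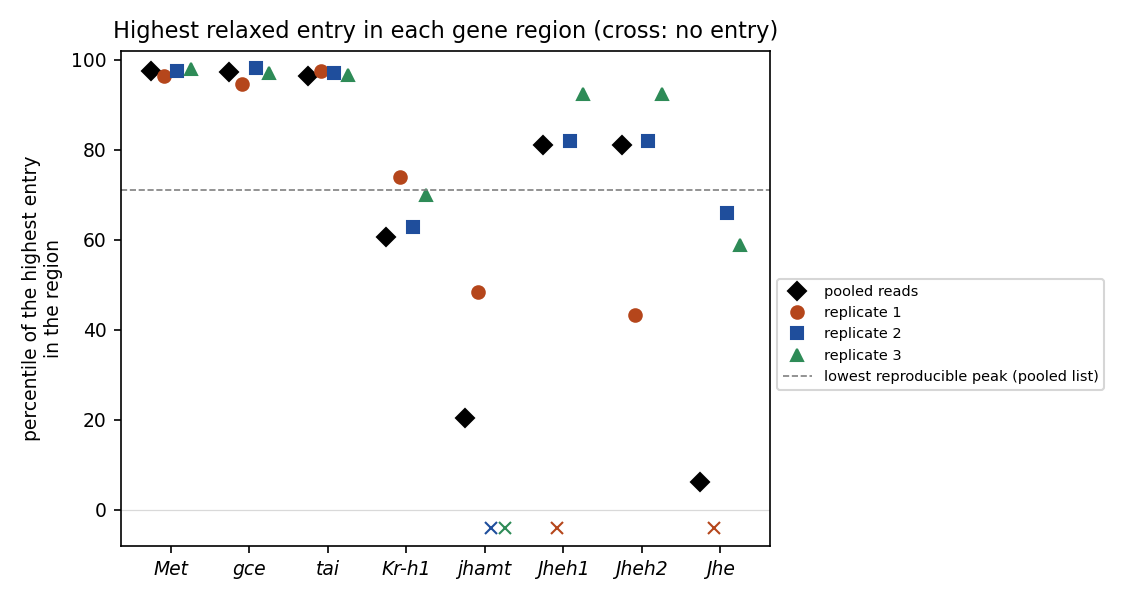
Percentile of the highest relaxed entry in each gene region, by list (vertical axis; crosses mark regions without an entry). Met, gce and tai lie above 90 in all 4 lists, whereas Kr-h1, jhamt and Jhe lie below the dashed line at percentile 71.0, the lowest reproducible peak, in the pooled list.

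Most of the 19 summits had a matching relaxed entry in all replicates. Entries of any percentile count as a match, and the lowest stood at 14.1, for 11623318 in replicate 1. An entry with its summit no more than 250 bp away was present for 15 of 19 in replicate 1, where 91.7% of all arm summits had one, and for 19 of 19 in replicates 2 and 3 (99.1% and 99.5% of all). All 3 replicates held 15 of 19, and 90.5% of all. The 4 that replicate 1 lacked were those at 9175374 and 9190511 in tai, at 15323408 in Top1 and at 18855436 upstream of Jheh1. Because the calls rest on the pooled reads of the same replicates, a match is not independent of them.

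Replicate 1 ranked the X-linked summits lower than the others did. Of the 8 summits on X found in every replicate, replicate 1 gave the lowest percentile for 7, with a median difference of −8.76 percentile points from the mean of replicates 2 and 3. Over all 1287 such X summits, replicate 1 was lowest for 51.4% and the median difference was −0.947. For the 7 on 2L, all in tai, it was lowest for 3, with a median difference of 1.35 (0.963 over 1509 summits of 2L). Replicate 1 matched 82.5% of all reproducible X summits and 94.4% of those on 2L. Met and gce are on X, and the part of this difference in their values was not tested. Of the summits described here, replicate 1 matched 8 of 9 on X and 7 of 9 on 2L, and not the 1 on 2R. Most of those it lacked were thus not on X.

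**Figure D4:**
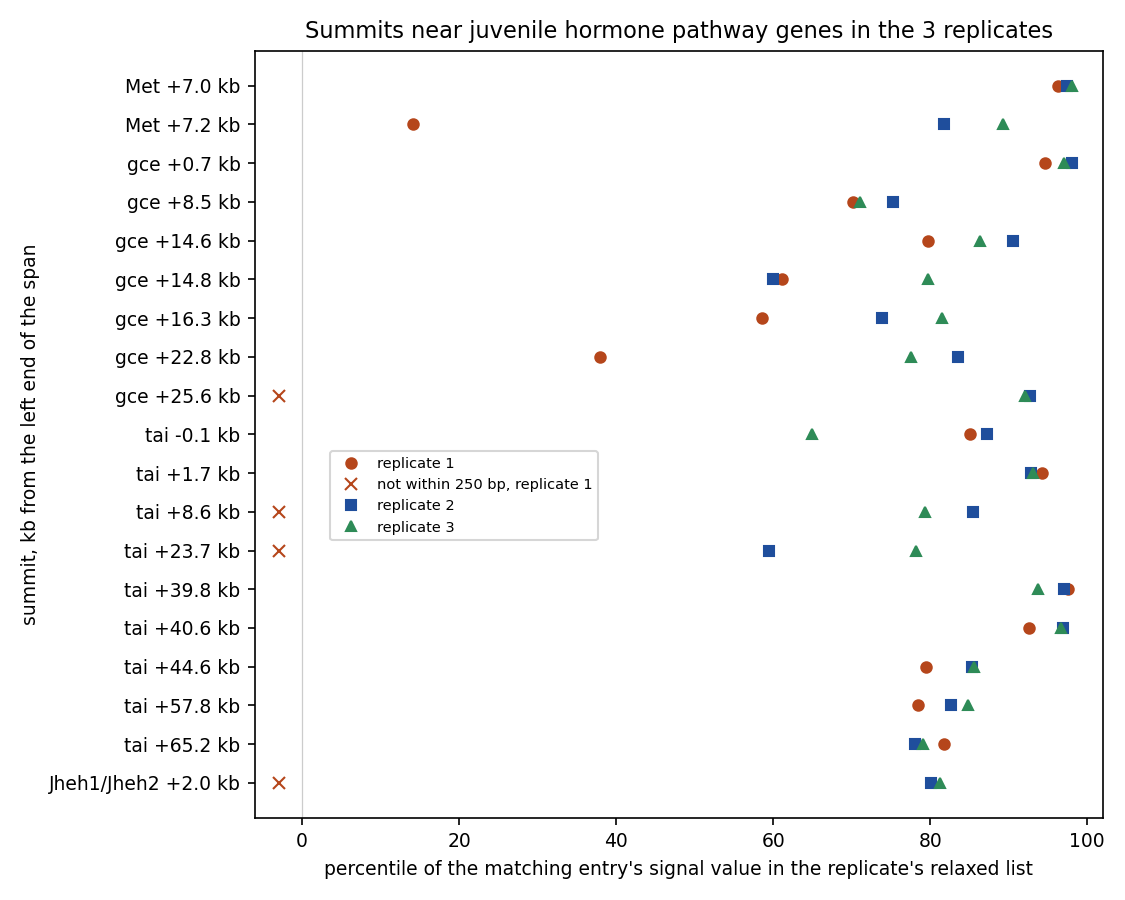
Percentile of the matching entry in the relaxed list of each replicate (horizontal axis) for the 19 summits, named by gene and distance in kb from the left end of its span. Crosses mark the 4 summits without a match in replicate 1, which also gave the lowest value for 7 of the 8 other X-linked summits (Met and gce).

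By annotation, 14 of the 19 summits lay in introns and 3 in promoters (within 250 bp of a start site), with 1 in 5′ UTR sequence and 1 in an exon of a non-coding RNA. None was in a coding exon or intergenic. Over all arm summits, 54.4% were intronic, 19.9% were in promoters and 21.8% intergenic. The regions searched are centred on genes, unlike the arms as a whole.

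The windows printed above are poor in G and C, with 1 exception. Over the 19 windows of 101 bp the mean GC content was 32.9% (SD 9.23), against 31.7% (SD 7.59) over all reproducible summits. Windows centred 250 bp to the left had 43.7% and to the right 42.4%, against 44.5% and 44.8% over all summits, so the lower GC content at the summit is shared with the whole list. The window of the Top1 summit at 15323408 had 63.4%, a value that 0.115% of all summit windows reached, and without it the mean was 31.2% (SD 5.70, n = 18). The lowest was 22.8%, at 9168466 in tai.

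Sites that fit a nuclear receptor or the hormone receptor were looked for in these windows on both strands. Neither AGGTCA, the nuclear receptor half-site, nor its extensions AAGGTCA and TCAAGGTCA, which overlap it, occurred in any of the 19, where 1.80%, 0.679% and 0.0230% of all reproducible windows held them. The E-box forms CACGTG and CACGCG, which bHLH-PAS proteins such as Met and gce bind, were also absent (0.553% and 0.794% of all). TATCGATA occurred in 1 window (0.668% of all), in gce, and GAGAG in 1 (8.38% of all), in tai at 9224578. At such shares, a count of 0 among 19 lies near the background.

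Other genes of juvenile hormone biology were taken as 29 genes in 5 lists, of which 6 had one of their start sites no more than 1 kb from a summit and 18 had a summit in their regions. Both counts lie near the background of 22.7% and 51.2% of all protein-coding genes, and the counts of the single lists, of 3 to 9 genes each, are given as a description. Of 5 genes of precursor synthesis, Hmgs, the hydroxymethylglutaryl-CoA synthase gene, alone had a summit within 1 kb (signal value 406, rank 1353, percentiles 95.8, 95.8 and 94.1). Fpps, the farnesyl diphosphate synthase gene, had its nearest summit at 8085 bp. Of 6 genes for allatostatins and their receptors, neuropeptide signals that can restrain hormone synthesis in insects, none had a summit within 1 kb, and 3 had one in the region. Of 3 genes of breakdown and binding, Jheh3 alone had 1 in its region, the summit of Jheh1 and Jheh2, 6642 bp from its own start site.

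Of 6 genes for receptor partners and chaperones, 5 had a summit in the region and 3 had one within 1 kb. With 6 genes, these counts are too small to set apart from the 51.2% and 22.7% of all genes. The 3 were Hsp83 (284, rank 2409), the Hsp90 chaperone gene, Chd64 (112, rank 6918), whose product binds a juvenile hormone response element, and usp (230, rank 3162), the partner of the ecdysone receptor. Of 9 hormone-inducible or downstream genes, 7 had a summit in the region, again too few genes to set apart from 51.2%. Those with a summit within 1 kb were Eip75B (881, rank 297) and Eip93F (108, rank 7187), the gene for the adult specifier that Kr-h1 represses. The pupal specifier br, another target of Kr-h1, had its nearest at 3444 bp. The vitellogenesis genes Yp1, Yp2 and Yp3 had none within 1 kb. For each of the 6 listed genes with a summit within 1 kb, the strongest such summit was matched in all 3 replicates, as were 90.5% of all arm summits.

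The genes whose strongest regional summit was most like that of Met in its percentiles over the 3 replicates were sought among protein-coding genes elsewhere. CG15773 came first, with a sum of absolute differences of 0.373 percentile points (rank 732). A summit at 3L 20002604 (0.407, rank 748) came next and lies in the regions of Tom20, CG7668, Gabat and kug, which therefore tie. Just inside the flank limit of 5 kb lay the Top1 summit, at 4334 bp from gce. Just outside lay the spin summit, at 6755 bp from Jhe, and 1 at 11629168, at 7888 bp from Met (signal value 97.2).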

How the data were processed

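Peak lists of ChIP-seq against GFP in 3 replicates of Hr4-GFP white prepupae were analysed. Chromatin was sonicated to 200 to 800 bp, per the labels. Relaxed lists of peaks and background came from each replicate, and from all 3 together, with a control, according to deposited text files. The optimal list was derived from these 4 relaxed lists by irreproducible discovery rate (IDR) analysis. Values are the authors' signal, as deposited, and were compared only within a list. The sources used here do not give the aligner, peak caller or cut-off. The 5 lists in build dm6 were read, and those in dm3 were not used. All 8693 reproducible peaks are entries of the pooled list.

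Summit positions (1-based) were placed on Ensembl release 115 annotation (BDGP6, the dm6 assembly) and the RefSeq Release 6 genome, with Python 3.11.15, pandas 2.3.3 and NumPy 2.4.6. All peak ends lay within the reference arms. A class was assigned in the order promoter, 5′ UTR, coding exon, 3′ UTR, non-coding exon, intron, intergenic. Percentiles are by rank of signal value within a list. Motifs were searched 50 bp to each side of a summit. Counting and matching were tested on simulated data.

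Named are the 8 genes, genes nearest to their summits, listed genes with a start site no more than 1 kb from a summit, and the genes most like the one with the strongest summit. Other genes that are named served to place a summit or a distance and were chosen after their values were seen. The genes, lists and motifs were chosen with earlier results of these data known. Other settings changed flank, match distance, start-site and motif windows, peak strength and replicate support. Without read depth, no counting interval was computed.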

Additional observations from a re-analysis of the deposited data

How the results depend on the processing

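Of 23 recomputed counts, 18 stayed within 1.5 times the reported value. Genes with a summit in their region fell from 5 to 2 with no flank, to 3 among the stronger 50% of peaks and to 3 among peaks found in all 3 replicates. With flanks of 1 and 10 kb they were 4 and 6. Among the stronger 50% of peaks the regions held 7 of the 19 summits, and 1 gene, gce, in place of 3 had a start site no more than 1 kb from a summit. The settings with lower counts kept fewer peaks or searched shorter regions. The share of all protein-coding genes at these settings is not given, so the counts cannot be set apart from a general change. Leaving out each replicate in turn gave 15 to 19 of the 19 summits in the remaining ones, and 19 came without replicate 1. Summits within 100 bp and 500 bp gave 12 and 16, and the highest 8693 entries of each replicate 10 (68.6% of all arm summits). For 100 bp and 500 bp the share of all arm summits is not given. AAGGTCA was absent in each window tried. No paired analysis was possible because there is 1 group and no comparison.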

Other observations

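In promoters, taken as 250 bp before to 50 bp after a start site, the 14 start sites of the 8 genes held CACGCG once, at the second Jheh2 start site (18858245), where 7.27% of 19607 start sites of protein-coding genes held it. Met held TATCGATA, which begins 15 bp past its start site (7.98% of all start sites), and the nearest reproducible Hr4 summit lay 6990 bp away. GAGAG occurred at 8 of the 14, in gce, tai, jhamt, Jhe, Jheh1 and Jheh2 (33.1% of all). Start sites of 1 gene can lie close together and share sequence. CACGTG and the AGGTCA half-site occurred at none of the 14, where 4.01% and 5.68% of all start sites held them.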
